A study of Rattus norvegicus with 6 samples.

Results

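The let-7 and miR-98 family was examined in small RNA libraries from rat lens capsules. Its members were all names of the deposited table made of rno-let-7 with a letter from a to i, or of rno-miR-98, with either arm. This gave 21 of the 910 names in the table, 9 guide arms (5p) and 12 passenger arms (3p). The control group held 3 Sprague-Dawley rat pups given saline under the skin, and the Na2SeO3 group held 3 pups given sodium selenite at 20 μmol/kg by the same route on days 3, 5, and 7, a treatment that clouds the lens. Pups were 8 days old at the start per the methods, and lenses were taken on day 15. Each library came from 1 rat, and no genetic change was made in either group. The model is a cataract of young animals after a toxic dose, and only 1 time point was sampled.

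The let-7 miRNAs are among the oldest known animal miRNAs and were found as timers of larval development in worms. They are scarce in stem cells, where the LIN28 proteins block their processing, and abundant in most differentiated tissues, where they hold down growth genes such as Hmga2 and members of the Ras family. A hairpin precursor is cut into a duplex, of which the guide arm is loaded into an Argonaute protein and the passenger arm is mostly discarded. A target is recognised chiefly through the seed, bases 2 to 8 of the guide arm, so miRNAs with the same seed share many predicted targets. The let-7b miRNA has been linked to human cataract in earlier work cited by the study.

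RefSeq mature sequences (build GRCr8) were found for 20 of the 21 names, with rno-let-7c-1-3p as the exception. The 9 guide arms are shown first because they differ by so few bases. Each has 22 bases and is written 5′ to 3′ with the seed in capitals.
rno-let-7a-5p: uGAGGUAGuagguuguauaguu
rno-let-7b-5p: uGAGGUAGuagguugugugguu
rno-let-7c-5p: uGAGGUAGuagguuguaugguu
rno-let-7d-5p: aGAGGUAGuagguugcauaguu
rno-let-7e-5p: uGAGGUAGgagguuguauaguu
rno-let-7f-5p: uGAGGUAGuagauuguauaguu
rno-let-7g-5p: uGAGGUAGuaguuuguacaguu
rno-let-7i-5p: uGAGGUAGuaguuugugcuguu
rno-miR-98-5p: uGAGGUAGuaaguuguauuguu
All 9 carried the seed GAGGUAG, and none of the other mature rat names among the 693 in the RefSeq table did. Counted from the 5′ end and with let-7a as the reference, let-7c differed by A19G, let-7e by U9G, and let-7f by G12A. The let-7b sequence carried A17G and A19G, let-7d U1A and U16C, let-7g G12U and U18C, and miR-98 G11A and A19U. The let-7i sequence was the furthest from let-7a, with G12U, A17G, U18C, and A19U. Of the 36 pairs of guide arms, 4 differed at 1 base only, namely let-7a with let-7c, let-7e, or let-7f, and let-7b with let-7c. How the authors' counting divided reads between such near-identical members was not tested, and the separate levels of these members are uncertain to that extent.

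The passenger arms that the results turn on are written in the same way, with bases 2 to 8 in capitals.
rno-let-7a-1-3p: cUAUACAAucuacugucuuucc
rno-let-7c-2-3p: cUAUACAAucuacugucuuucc
rno-let-7d-3p: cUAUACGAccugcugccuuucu
rno-let-7f-2-3p: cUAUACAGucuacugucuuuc
rno-miR-98-3p: cUAUACAAcuuacuacuuucc
The first 2 are the same molecule from different genes, and their counts were identical in all 6 libraries, at 432, 285, and 260 reads in control libraries 1 to 3 and 85, 131, and 75 reads in Na2SeO3 libraries 1 to 3. The table therefore listed the same reads under both names. They are treated below as 1 measurement that cannot be assigned to either gene. Among names with at least 10 reads in all, 6 such pairs of identical rows were found in the table, 2 of them between rat names.

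RefSeq places 12 hairpin genes of the family in GRCr8, and several lie side by side. Mirlet7a1, Mirlet7f-1os (the entry that holds rno-let-7f-5p and rno-let-7f-1-3p), and Mirlet7d share the forward strand of chr17:16320133-16322357, within the span of a long non-coding RNA gene. The separate entry Mirlet7f-1 lies on the opposite strand there and holds rno-miR-3596d. Mirlet7c2 and Mirlet7b share the forward strand of chr7:118683623-118684119. Mirlet7f2 and Mir98 lie within the span of the protein-coding gene Huwe1, which encodes a ubiquitin ligase, at chrX:24460045-24460755. Mirlet7g lies within the spans of Wdr82 and Rpl29 on chromosome 8, at chr8:115701020-115701107. The table of the authors carries no coordinates, and RefSeq's gene spans do not say whether a hairpin is exonic or intronic. Mirlet7c1, Mirlet7a-2, and Mirlet7e have neighbours within 10 kb, namely Mir99a beside Mirlet7c1, Mir100 beside Mirlet7a-2, and both Mir99b and Mir125a beside Mirlet7e, whereas no miR-125b gene was found in such a window.

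The totals counted under miRNA names ran from 1806596 to 2829903 in the control group and from 663096 to 968151 in the Na2SeO3 group. These totals are not sequencing depth, since the raw reads listed in the paper overlap between the groups. So 3 counts stood for 1.06 to 1.66 CPM in the control libraries and 3.10 to 4.52 CPM in the Na2SeO3 libraries, where CPM are counts scaled to one common total per library. These limits cover counting error only. The lens markers miR-184, miR-204-5p, miR-205, and miR-211-5p were all counted, and their summed level was 94675 to 109757 CPM in the control group and 48567 to 60798 CPM in the Na2SeO3 group. Of these 4 markers 2 were lower (miR-184 and miR-205, edgeR's quasi-likelihood test, adjusted p-value below 0.05), where 13.8% of all names tested were lower and 20.8% higher by the same rule, and miR-184 made up most of the sum. The summed level of 7 striated muscle miRNAs was 7252 to 8800 CPM and 13486 to 14595 CPM in the same order, and 4 of the 5 tested were higher by the same rule, against the 20.8% of all names. For 4 erythroid miRNAs it was 254 to 306 CPM and 404 to 518 CPM, with 1 of the 3 tested higher, and for 6 neural and glial miRNAs 29604 to 36952 CPM and 36288 to 46403 CPM, with overlapping ranges and 2 of the 5 tested higher. These lists are too short to set 1 of 3 or 2 of 5 apart from the 20.8% of all names. The same holds for the 2 of 4 lens markers and the 13.8% of all names that were lower. For 4 leukocyte miRNAs the ranges overlapped too, at 136 to 171 CPM and 103 to 159 CPM, and none of the 4 tested passed. No marker was at 0 in all libraries. The part of these shifts in the results below was not tested, and in bulk RNA fewer cells of a type and less RNA per cell cannot be told apart.

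The guide arms together took a similar part of the miRNA reads in both groups. Their sum was 8.28%, 9.34%, and 7.84% of all counts in control libraries 1 to 3, averaging 8.49% ± 0.77 (SD, n = 3). In Na2SeO3 libraries 1 to 3 it was 8.87%, 9.19%, and 9.58%, averaging 9.21% ± 0.36 (SD, n = 3). These ranges overlapped, because control library 2 lay above 2 of the Na2SeO3 libraries, and the difference of 0.73 percentage points was smaller than the spread of the control libraries. It was 0.40 without control library 3 and 1.16 without control library 2. These are shares of counted miRNA reads and say nothing of the amount of RNA per lens.

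A few members made up most of the family. As CPM after TMM scaling, which assumes that the bulk of miRNAs is unchanged, let-7i-5p was counted at 23319, 26719, and 31114 CPM in control libraries 1 to 3 and at 24236, 20287, and 27370 CPM in Na2SeO3 libraries 1 to 3. For let-7f-5p the values were 23017, 30365, and 24005 CPM and 23996, 23836, and 25775 CPM. For let-7g-5p they were 19842, 25034, and 22970 CPM and 22599, 21217, and 25108 CPM. The groups overlapped in each of these miRNAs, and each ranked between 9 and 13 among all rat names in every library. Together they took 83.0% ± 1.95 of the guide-arm counts of control libraries and 82.7% ± 1.82 of those of Na2SeO3 libraries (SD, n = 3 each).

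The remaining guide arms followed in a fixed order. The level of let-7c-5p was 7310, 9184, and 7078 CPM in control libraries 1 to 3 and 7183, 7089, and 7047 CPM in Na2SeO3 libraries 1 to 3. Next came let-7a-5p, the member identical from worms to mammals, with 4631, 5725, and 4008 CPM and 4703, 4877, and 4295 CPM. The other 4 were let-7b-5p with means of 1260 ± 219 and 1317 ± 101 CPM in the control and Na2SeO3 groups (SD, n = 3 each), let-7e-5p with 865 ± 113 and 897 ± 82.2 CPM, let-7d-5p with 473 ± 64.0 and 550 ± 45.3 CPM, and miR-98-5p with 253 ± 14.2 and 337 ± 83.9 CPM. From let-7f-5p downwards each guide arm was counted more often than the next in 6 of 6 libraries, though let-7f-5p exceeded let-7g-5p by a factor of only 1.03 to 1.21. At the top the order was not fixed, since let-7i-5p lay above let-7f-5p in 4 of 6 libraries. All guide arms have the same length, so length does not enter these comparisons.

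**Figure D1:**
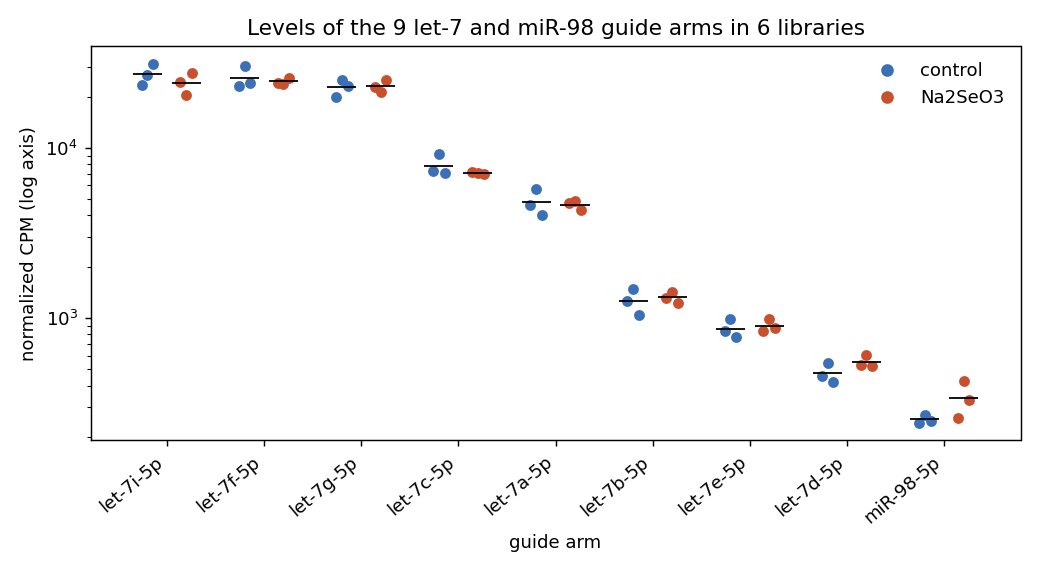
Normalized CPM (log axis) of the 9 guide arms, 1 point per library and a line at each group mean (n = 3 per group). The levels ran from about 20287 to 31114 CPM in let-7i-5p down to 242 to 425 CPM in miR-98-5p, and the groups overlapped in all 9.

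The question of the comparison was which miRNAs differ between clear lenses and lenses with selenite cataract. None of the 9 guide arms was a DEmiRNA, defined as in the methods by an adjusted p-value below 0.05 and an absolute log2 fold change above 1 (edgeR's quasi-likelihood test, adjusted over 341 names). Among all names tested 16.4% were DEmiRNAs, and 34.6% passed the adjusted p-value alone. No guide arm passed the adjusted p-value alone, 1 (miR-98-5p) had an unadjusted p below 0.05, where 44.3% of all names did, and DESeq2 and limma-voom called none either. The log2 fold changes ran from -0.17 in let-7i-5p to 0.42 in miR-98-5p, 5 positive and 4 negative, and the signs near 0 changed with the scaling, since all 9 were positive with library size only and 7 were negative with RLE factors. Their median absolute value was 0.07, against 0.42 over all names tested and 0.33 over the 131 names with a mean of at least 200 CPM. In none of the 9 were the libraries of one group all above those of the other, whereas this held for 46.3% of all names tested.

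The intervals limit how large a change of a guide arm could be on this scale. The 95% interval of the log2 fold change lay within -1 and 1 in all 9 guide arms, as it did in 54.8% of all names, and within -0.6 and 0.6 in 8 of the 9, against 24.3% of all names. Many of those names had low counts and wide intervals. Of the 131 names with a mean of at least 200 CPM, 101 lay within -1 and 1 and 58 within -0.6 and 0.6. For let-7g-5p the log2 fold change was 0.02 (interval -0.28 to 0.32, adjusted p = 0.913, edgeR). For let-7f-5p it was -0.07 (interval -0.38 to 0.23, adjusted p = 0.749, edgeR), and for let-7i-5p -0.17 (interval -0.51 to 0.16, adjusted p = 0.428, edgeR). The cataract-linked let-7b-5p was at 0.06 (interval -0.30 to 0.43, adjusted p = 0.811, edgeR), so that a doubling of its share lay outside the interval. For let-7a-5p, let-7c-5p, let-7d-5p, and let-7e-5p the log2 fold changes were -0.05, -0.14, 0.22, and 0.05. An adjusted p above the threshold does not show that the levels were equal.

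The guide arm with the largest difference was miR-98-5p, the family's X-linked member named outside the let-7 series. It was counted at 242, 269, and 248 CPM in control libraries 1 to 3 and at 258, 425, and 329 CPM in Na2SeO3 libraries 1 to 3. Na2SeO3 library 1 lay inside the control range and the other 2 above it. The log2 fold change was 0.42 (standard error 0.19, interval 0.01 to 0.82, adjusted p = 0.0997, edgeR). It passed an adjusted p-value of 0.05 without Na2SeO3 library 1 (log2 fold change 0.54, adjusted p = 0.0234) and with library size only as the scale (0.62, adjusted p = 0.0273), it was 0.21 without Na2SeO3 library 2, and its adjusted p ranged from 0.0234 to 0.343 over all alternatives.

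**Figure D2:**
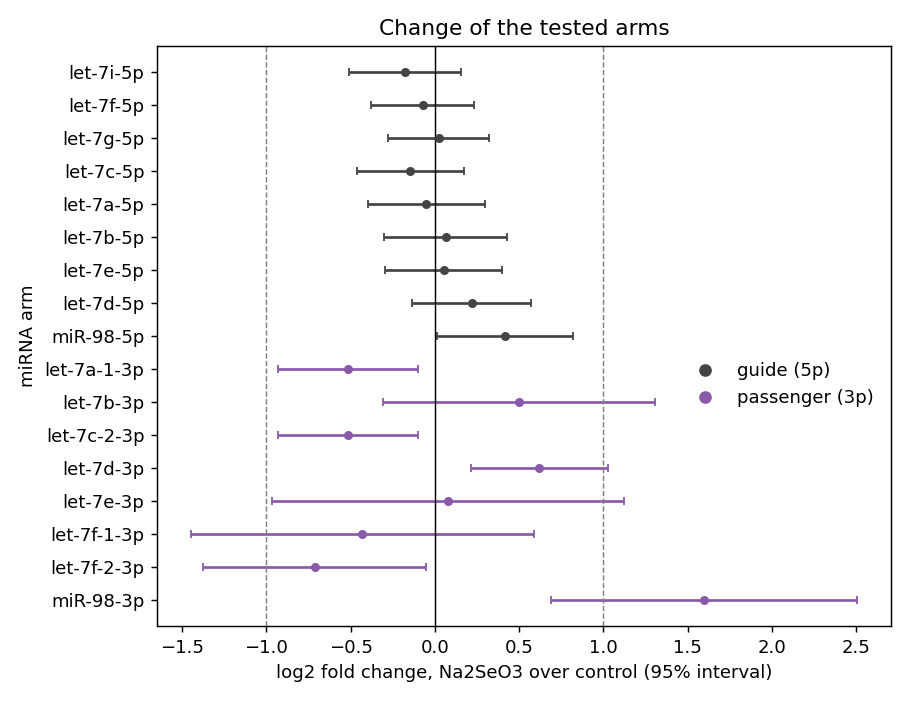
Log2 fold change (Na2SeO3 over control) of the 9 guide arms and the 8 passenger arms tested, with 95% intervals from edgeR's quasi-likelihood fit of 3 libraries per group and dashed lines at -1 and 1. The guide arms cluster between -0.17 and 0.42, whereas the passenger arms run from -0.71 to 0.62, and to 1.60 with miR-98-3p, which passed the filter only through the Na2SeO3 group, and let-7a-1-3p and let-7c-2-3p are the same reads.

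Shares within the family do not depend on how libraries are scaled. Over the 9 guide arms, the shares of 3 did not overlap between the groups, those of let-7g-5p, let-7d-5p, and miR-98-5p, all higher in the Na2SeO3 group. For the levels of all names tested such a lack of overlap held in 46.3%, and for the levels of the guide arms in 0 of 9. A level is another measure than a share within the family. No background was computed for such shares, and the 3 of 9 is not read as a result about these members. The share of let-7g-5p was 24.5%, 25.0%, and 25.1% of the guide-arm counts in control libraries 1 to 3 and 26.4%, 26.3%, and 27.1% in Na2SeO3 libraries 1 to 3. The groups stood apart by more than their spread, with means of 24.8% ± 0.29 and 26.6% ± 0.47 (SD, n = 3 each; two-sided exact permutation test, p = 0.1, the lowest value possible with 3 libraries per group). The share of let-7d-5p was 0.560%, 0.543%, and 0.460% against 0.617%, 0.745%, and 0.561%, so the closest libraries almost met (exact permutation test, p = 0.1). The share of miR-98-5p was 0.300%, 0.269%, and 0.271% against 0.301%, 0.526%, and 0.355%, again with nearly touching ranges (exact permutation test, p = 0.1).

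The other 6 shares overlapped. The largest difference in percentage points was that of let-7i-5p, with 28.8%, 26.6%, and 33.9% in control libraries 1 to 3, against 28.3%, 25.1%, and 29.6% in Na2SeO3 libraries 1 to 3. Control library 3 held the highest let-7i-5p share and the lowest shares of let-7a-5p (4.37%), let-7b-5p (1.14%), let-7d-5p (0.460%), let-7e-5p (0.839%), and let-7f-5p (26.2%). The let-7i-5p means of 29.8% ± 3.75 and 27.7% ± 2.29 (SD, n = 3 each) differed by less than the spread (exact permutation test, p = 0.5). For the other 5 the exact permutation p lay between 0.5 and 1, over 9 shares compared in all. No p-value of these tests can pass 0.05.

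**Figure D3:**
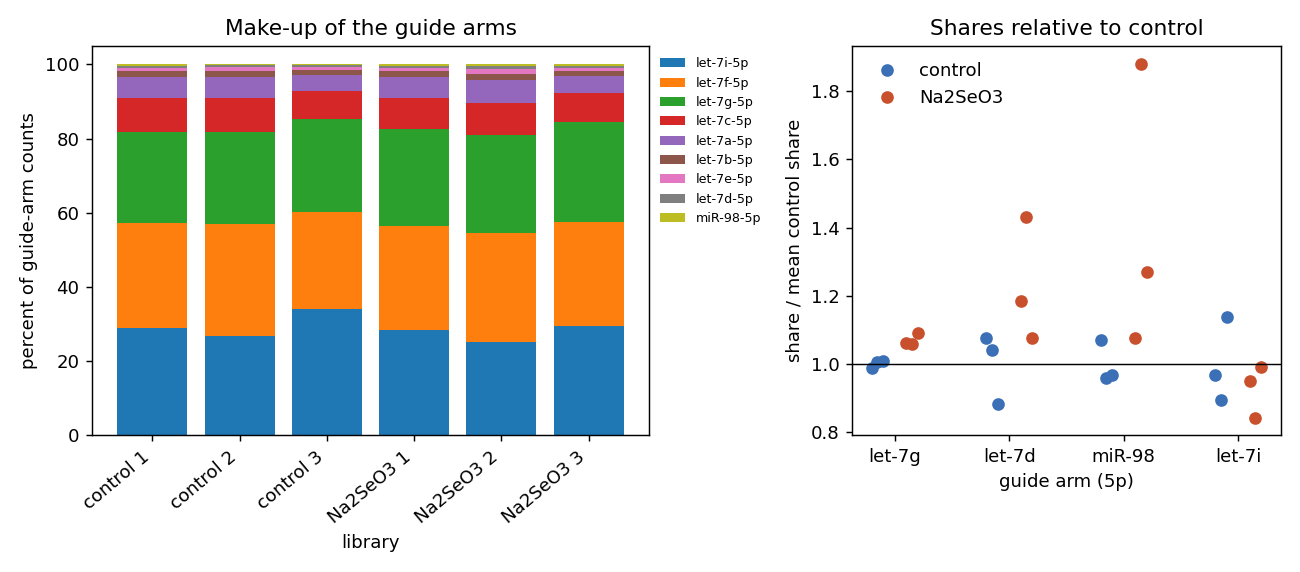
Left, the percent of guide-arm counts taken by each of the 9 guide arms in the 6 libraries; right, the share of 4 guide arms divided by the mean control share, 1 point per library. The make-up is similar in all libraries, and the let-7g-5p share lies between 26.3% and 27.1% in the Na2SeO3 group, above the 24.5% to 25.1% of the control group.

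Passenger arms were rare. With the identical pair counted once, they took 0.424% ± 0.045 of the family's reads in the control group and 0.494% ± 0.078 in the Na2SeO3 group (SD, n = 3 each), and the groups overlapped. Of the 12 passenger names 8 passed the filter on low counts and were tested. The other 4 had 3 (let-7a-2-3p), 50 (let-7c-1-3p), 18 (let-7g-3p), and 48 (let-7i-3p) reads over all libraries. Of the 8 tested, 1 was a DEmiRNA with a higher level in the Na2SeO3 group and 0 had a lower one, against 11.4% and 4.99% of all names, and that 1 (miR-98-3p) passed the filter only through the Na2SeO3 group. The adjusted p-value alone was passed by 2, both higher, against 20.8% of all names higher and 13.8% lower. The groups did not overlap in 5 of the 8, against 46.3% of all names, and the 5 include both names of the identical pair.

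The passenger arm of let-7d had 160, 161, and 173 CPM in control libraries 1 to 3 and 323, 203, and 238 CPM in Na2SeO3 libraries 1 to 3, so the groups did not overlap and Na2SeO3 library 1 was the highest. It rose by a log2 fold change of 0.62 (standard error 0.19, interval 0.21 to 1.03, adjusted p = 0.0209, edgeR's quasi-likelihood test), short of the fold change threshold. The adjusted p rose above 0.05 in 5 of the 6 fits that left out a library, reaching 0.101 without control library 1 and staying below it only without Na2SeO3 library 2, and it was 0.0897 without the filter on low counts. The log2 fold change was 0.39 without Na2SeO3 library 1 and between 0.60 and 0.76 without any other library.

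The passenger arm of miR-98 was past both DEmiRNA thresholds, but it entered the test only through the group in which it was high, so it had to differ and the call carries no weight. It was counted 14, 7, and 7 times in control libraries 1 to 3 and 8, 12, and 16 times in Na2SeO3 libraries 1 to 3, whose count totals were much lower. As CPM this was 4.84, 3.62, and 4.53 against 11.6, 10.9, and 17.6, without overlap. The log2 fold change was 1.60 (standard error 0.42, interval 0.69 to 2.51, adjusted p = 0.0104, edgeR). It reached the filter level of 7.21 CPM in 0 control and 3 Na2SeO3 libraries. The call was lost without control library 2 (adjusted p = 0.0596), control library 3 (0.0539), or Na2SeO3 library 3 (0.0793, edgeR), and without the filter (0.0697).

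The reads listed under both let-7a-1-3p and let-7c-2-3p lay in the other direction. Their level was 149, 147, and 168 CPM in control libraries 1 to 3 and 124, 119, and 82.5 CPM in Na2SeO3 libraries 1 to 3, without overlap, and their log2 fold change was -0.52 (standard error 0.19, adjusted p = 0.0519, edgeR). Over the 17 alternatives the adjusted p of let-7a-1-3p ran from 0.0218 to 0.225, below 0.05 in 8, and the log2 fold change stayed between -0.64 and -0.32. The level of let-7f-2-3p was 18.3, 20.2, and 19.4 CPM against 8.74, 14.5, and 11.0 CPM, with no overlap. Its log2 fold change was -0.71 (adjusted p = 0.087, edgeR), on 6 to 16 reads per Na2SeO3 library. For let-7b-3p, let-7e-3p, and let-7f-1-3p the log2 fold changes were 0.50, 0.08, and -0.43, with overlapping groups and intervals that reached past 1 in size. The passenger arm of let-7i was counted 18, 11, and 11 times in control libraries 1 to 3 and 1, 3, and 4 times in Na2SeO3 libraries 1 to 3, and let-7g-3p had 0 reads in Na2SeO3 library 1, which allows up to 4.52 CPM.

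Within a library, the number of guide reads per passenger read differed widely between members. Summed over the 3 control libraries there were 10095 guide reads per passenger read for let-7g, on 14 passenger reads, 4181 for let-7i, and 902 for let-7f. For let-7b, let-7e, and miR-98 there were 123, 123, and 57.4. For let-7c and let-7a the values were 49.4 and 31.3, both with the shared 3p reads in the count. The lowest was let-7d, with 2.89 guide reads per passenger read in the control group and 2.26 in the Na2SeO3 group, so the arms of let-7d were closer in number than those of any other member, with the guide arm still the more frequent.

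Guide-to-passenger ratios were compared between the groups for the 4 members with at least 10 passenger reads in every library. For let-7f there were 952, 932, and 789 guide reads per passenger read in control libraries 1 to 3 and 1498, 1010, and 1674 in Na2SeO3 libraries 1 to 3, with every Na2SeO3 library above every control library. The mean log2 ratio was 9.78 ± 0.15 and 10.4 ± 0.37 (SD, n = 3 each; two-sided exact permutation p = 0.1, the smallest possible). Only 11 to 26 passenger reads per library stood behind the Na2SeO3 values. The ratios of let-7a, let-7c, and let-7d overlapped between the groups, with log2 differences of 0.49, 0.37, and -0.38 (exact permutation p = 0.2, 0.3, and 0.3). The overlap of let-7a and let-7c was lost without control library 2, and that of let-7d without Na2SeO3 library 2. For miR-98, which was below the read limit, there were 50.1, 74.4, and 54.9 guide reads per passenger read against 22.1, 39.0, and 18.7. Its passenger arm passed the filter only through the Na2SeO3 group, so no difference is read from these values.

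Members of one cluster come from neighbouring hairpins, and their passenger arms were set against each other within each library, a comparison chosen after the values were seen. The values are a description with no test, because each pair holds a passenger arm that lay higher and one that lay lower. In the chromosome 17 cluster let-7d-3p had 1.07, 1.09, and 1.03 reads per read of let-7a-1-3p in control libraries 1 to 3 and 2.61, 1.71, and 2.88 in Na2SeO3 libraries 1 to 3. The control libraries were nearly equal and every Na2SeO3 library lay above them, and part of the let-7a-1-3p reads may belong to let-7c-2. In the Huwe1 cluster miR-98-3p had 0.264, 0.179, and 0.233 reads per read of let-7f-2-3p against 1.33, 0.750, and 1.60, also without overlap, where miR-98-3p had passed the filter only through the Na2SeO3 group.

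The guide arms of the clusters were set against each other in the same way. There were 0.0979, 0.0951, and 0.105 reads of let-7d-5p per read of let-7a-5p in control libraries 1 to 3 and 0.112, 0.123, and 0.121 in Na2SeO3 libraries 1 to 3, so each Na2SeO3 library lay above each control library. For miR-98-5p per let-7f-5p, from the Huwe1 cluster, the values were 0.0105, 0.00887, and 0.0104 against 0.0107, 0.0178, and 0.0128, with Na2SeO3 library 1 just above the control range. For let-7b-5p per let-7c-5p, which share the chromosome 7 cluster, the values were 0.172, 0.161, and 0.147 against 0.183, 0.200, and 0.173, where the closest libraries almost met. Whether the ratios of passenger arms differed more than those of guide arms was not tested. The reads of let-7a-5p and let-7c-5p can also come from a gene outside these clusters, and those of let-7f-5p from either of its clusters, so they cannot be assigned to one gene.

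**Figure D4:**
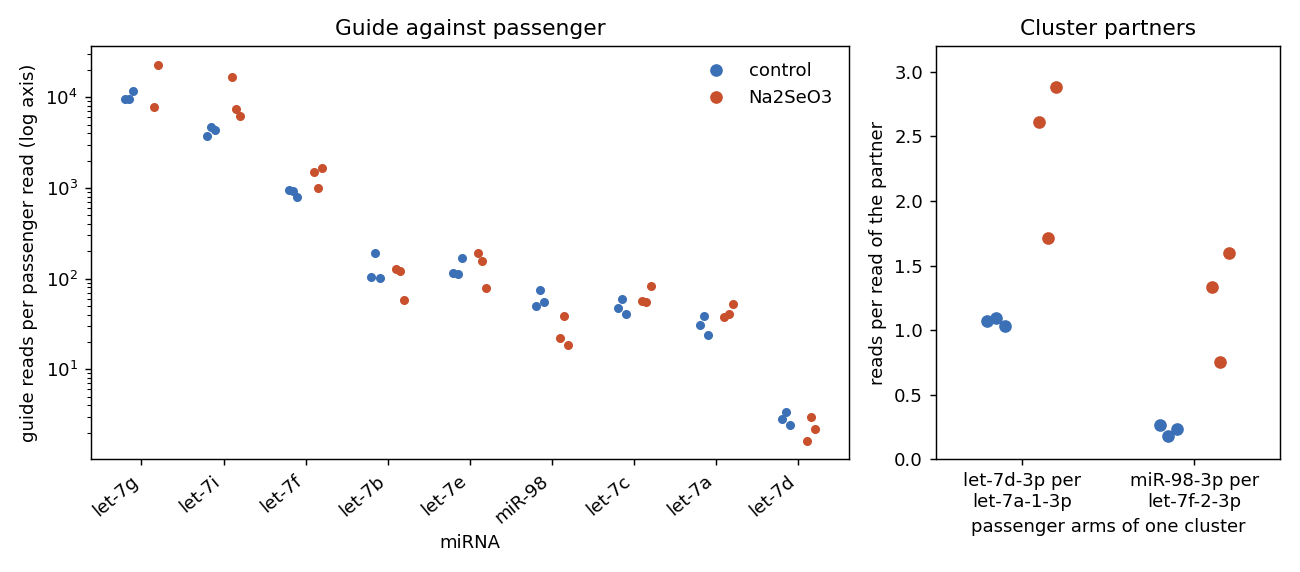
Left, guide reads per passenger read (log axis) for the 9 members, 1 point per library; Na2SeO3 library 1 has no point for let-7g, which had 0 passenger reads there. Right, reads of let-7d-3p per let-7a-1-3p read and of miR-98-3p per let-7f-2-3p read, where the control libraries lie at 1.03 to 1.09 and 0.179 to 0.264 and the Na2SeO3 libraries above them. Both pairs were chosen after the values were seen, and miR-98-3p passed the filter only through the Na2SeO3 group.

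Of the 11 listed names of the miR-99, miR-100, and miR-125 families, listed because genes of these families accompany let-7 genes in mammals, 8 were tested, and none was a DEmiRNA in edgeR, DESeq2, or limma-voom, against 16.4% of all names. Their median log2 fold change was -0.24, against 0.08 over all names and 0.02 over the guide arms, with 2 of 8 unadjusted p-values below 0.05, against 44.3% of all names. The neighbour of let-7c-1, miR-99a-5p, averaged 164112 ± 1848 CPM in the control group and 125571 ± 8420 CPM in the Na2SeO3 group (SD, n = 3 each). It fell by 0.39 on the log2 scale (adjusted p = 0.0141, edgeR) and was the only one of the 8 to pass the adjusted p-value in this fit, where 13.8% of all names passed with a lower level, so the count is near the background. For miR-125b-1-3p the log2 fold change was -0.52 (adjusted p = 0.0504, edgeR), and it passed in 9 of 17 alternatives, among them DESeq2 (adjusted p = 0.0265) and limma-voom (adjusted p = 0.0477), over a range from 0.0230 to 0.228. For miR-99a-5p the log2 fold change was -0.19 (adjusted p = 0.216) with library size only as the scale, -0.47 (adjusted p = 0.0596) without the filter, and -0.39 (adjusted p = 0.0607) when the replicate number was a block in the model, all in edgeR.

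The antisense names rno-miR-3596a to rno-miR-3596d, which lie opposite let-7 hairpins, had 1 read in all 6 libraries together. No name of another species in the table belonged to the family. Over the 6 libraries, the rat miRNAs whose log2 CPM followed the median of the guide arms most closely were miR-338-5p, miR-423-5p, and miR-421-3p. Pearson's r was 0.85, 0.83, and 0.78 (n = 6 libraries whose count totals also differ by group, given as a description). The median guide arm itself moved little, from 0.19 below to 0.17 above its mean on the log2 scale, with both extremes among control libraries.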

How the data were processed

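Small RNA was sequenced as reads of 50 bp. For alignment the authors name miRDeep and HISAT2 with a rat genome from Ensembl, and for read cleaning and quality control Fqtrim, Cutadapt, and FastQC. The deposited table holds raw read counts per miRNA name and library. Build, versions, and the handling of reads that match several names are not given in the sources used here.

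Filtering (filterByExpr, minimum count 10) left 341 of 910 names. TMM-scaled groups of 3 libraries entered edgeR's quasi-likelihood test without covariates, with Benjamini-Hochberg adjustment over all names, and 95% intervals came from the fold change, its F statistic, and the total degrees of freedom. For log2 CPM a prior count of 2 was used. Member shares within the family and guide-to-passenger ratios got two-sided exact permutation tests. The family's share of counts and the ratios of cluster partners are descriptions without a test. The procedure was run on simulated counts with the same dispersion for every name. That setting is simpler than these libraries, so the run does not bear on single calls. Replicates were separate animals, no libraries agreed within sampling noise (chi-square per degree of freedom at least 28.0), and their numbers do not pair them.

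Named miRNAs were all 21 family names, a list of neighbours, cell type markers, and the 3 rat miRNAs most like the guide arms. Members and lists were chosen with earlier results of these data known. Alternatives were other scalings, filters, and tests, a replicate block, and each library left out; rat names only and identical rows counted once were added after seeing the data. Software versions were edgeR 4.0.16, DESeq2 1.42.0, limma 3.58.1, and R 4.3.3.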

Additional observations from a re-analysis of the deposited data

How the results depend on the processing

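No guide arm was a DEmiRNA under any of the 17 alternatives, and 2 of 153 such fits passed an adjusted p-value of 0.05, both for miR-98-5p. The number of passenger arms called, 1, became 0 without a filter on low counts and 0 with at least 10 counts in every library, where miR-98-3p was not tested, and it ranged from 0 to 1 with each library left out. The number of guide-to-passenger ratios without overlap, 1 of 4 (let-7f), ranged from 1 to 3 with each library left out. It reached 3 without control library 2, with let-7a and let-7c added. Without Na2SeO3 library 1 let-7a was added, and without Na2SeO3 library 2 let-7d was. For the levels of all names tested, another measure than a ratio, the groups did not overlap in 46.3%, and 1 of 4 is not read as a result. In a model with a replicate block, 0 guide arms and 1 passenger arm were called and 49 names in all, against 56; it changed no call of a family member, and same-numbered libraries deviated from their group means with correlations of -0.17, -0.18, and -0.26. Of the DEmiRNAs over all names 69.6% were higher in the Na2SeO3 group, 84.1% with library size only, which moved the median of all names from 0.08 to 0.27, and 59.3% with upper-quartile scaling.

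The sign of guide arms near 0 changed with the scale, and these members have no direction here. With library size only, the log2 fold change was 0.14 for let-7a-5p, 0.047 for let-7c-5p, 0.12 for let-7f-5p, and 0.023 for let-7i-5p, all below the median of all names. With RLE factors it was -6.59e-06 for let-7b-5p, -0.010 for let-7e-5p, and -0.034 for let-7g-5p. With upper-quartile scaling it was -0.026 for let-7b-5p, -0.038 for let-7e-5p, -0.060 for let-7g-5p, and -0.020 for let-7e-3p. Without a filter it was -0.020 for let-7b-5p, -0.030 for let-7e-5p, -0.053 for let-7g-5p, and -0.0073 for let-7e-3p. With DESeq2 it was -2.93e-05 for let-7b-5p, -0.0099 for let-7e-5p, and -0.034 for let-7g-5p, and with rat names only -0.0042 for let-7g-5p. With each library left out it ranged from -0.16 to 0.10 for let-7a-5p, -0.056 to 0.20 for let-7b-5p, -0.027 to 0.16 for let-7e-5p, -0.15 to 0.065 for let-7f-5p, and -0.063 to 0.10 for let-7g-5p. For let-7e-3p it ranged from -0.35 to 0.26 over the 3 fits that left out a Na2SeO3 library, and it was not tested without a control library. The smallest adjusted p after a change of sign was 0.516. Low counts limit the passenger arms, several of which had fewer than 10 reads in a library.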
